A study of Rattus norvegicus with 16 samples.

Results

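The late-numbered rat miRNAs are the rno-miR entries of the array whose name is miR-3 followed by 3 more digits, with any letter or arm suffix. Names were used to choose them and no measured value was. After 1 entry, miR-3544, was left out by the rule, 82 of the 677 rat miRNAs on the array belonged to the set, and the other 595 are called older-numbered here. The measurements came from hearts of newborn rats of 2 strains killed on day 2 after birth, HHR (Hypertrophic Heart Rat, a strain with polygenic enlargement of the heart) and NHR (Normal Heart Rat, its control strain). Each strain gave 4 females and 4 males, making 4 groups of 4 untreated pups. No RNA was pooled, and every pup had its own one-colour array of Cy3-labelled total RNA. The growth protocol speaks of whole hearts but the design text of ventricles freed of the atria, and the labels do not say which pups shared a litter.

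miRNAs are short RNAs cut from hairpin precursors, and bases 2 to 8 of the mature strand, the seed, mostly decide which messenger RNAs they repress. They are numbered in the order in which they were registered, so in rat such a high number marks an entry found late, largely by deep sequencing of small RNAs after the abundant and conserved families already had names. A hairpin read on the opposite strand of DNA can also fold into a hairpin. Several late entries are such antisense partners of old and abundant miRNAs, and their mature strands are then complementary to the older ones.

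Of the 82 names, 65 had a mature sequence in RefSeq (build GRCr8) and 17 did not. The 7 members with signal in these hearts are shown first, because the results turn on them. Each is written from the first base at its start, with the seed in capitals.
miR-3085: uCUGGCUGcuauggcccccuc
miR-3573-3p: uUCCUAACucugcccccucccau
miR-3593-3p: cUUCAACCuuaagggggccuca
miR-3549: aUCUUGCCcgcaaagaccc
miR-3559-5p: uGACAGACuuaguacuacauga
miR-3588: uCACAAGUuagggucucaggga
miR-3584-5p: gGGAGGAGuccaggaggc
No seed was shared between members. On GRCr8 miR-3085 lies at chr1:251038197-251038217 on the minus strand and miR-3593-3p at chr6:78987770-78987791 on the minus strand, both outside every other listed gene. miR-3573-3p (chrX:68299322-68299344, plus strand) lies within the span of Efnb1, which encodes the membrane-bound ligand ephrin-B1. miR-3559-5p (chrX:73660193-73660214, minus strand) lies within Zdhhc15, a protein palmitoyltransferase gene, and miR-3584-5p (chr1:256727582-256727599, minus strand) within Itprip and a long non-coding RNA gene. The gene table used gives spans without exons, so exonic or intronic position was not analysed here.

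The set also held 32 members whose mature strand was complementary to an older miRNA over 16 to 22 consecutive bases, 20 of them over their full length, and all 32 older partners were on the array. The pairs of miR-3571, miR-3596a and miR-3588 below set a late entry against a miRNA known for its abundance in heart or elsewhere. In the pair of miR-3549 the member was detected and the partner, miR-193*, was not. The complementary stretch is in capitals.
miR-3571: UACACACUUCUUUACAUUCCAua
miR-1: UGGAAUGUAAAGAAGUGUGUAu
miR-3596a: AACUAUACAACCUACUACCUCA
let-7a: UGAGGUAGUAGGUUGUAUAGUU
miR-3588: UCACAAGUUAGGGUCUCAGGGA
miR-125b-5p: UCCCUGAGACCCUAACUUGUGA
miR-3549: AUCUUGCCCGCAAAGACCC
miR-193*: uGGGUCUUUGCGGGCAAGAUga
RefSeq listed 48 hairpins, which give 60 of the 65 matched members, and 25 of the 48 overlapped the hairpin of another miRNA on the opposite strand. The hairpins of the other 5 members, miR-3588 among them, were not used in this count. By the position of its mature strand miR-3588 (chr11:29732588-29732609, minus strand) lies within the Mir125b2 gene and miR-3549 (chr10:65170337-65170355, minus strand), whose hairpin is opposite Mir193, within the span of Faul2. The miRNA named miR-193* on the array is miR-193a-5p in RefSeq.

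Each miRNA was read by 20 spots, in 2 probes for 76 of the members and in more for the other 6, and no spot was saturated. Levels are scaled signals in arbitrary units, the mean of a miRNA's probes after each array was set to the same 75th percentile of bright probes. A miRNA counted as detected on an array where most spots of at least 1 of its probes were marked well above background. Before scaling the arrays differed in brightness. This percentile was 417.7 to 525.2 on the 8 HHR arrays, 442.7 to 502.9 on 3 NHR arrays (female 3, male 2 and male 4) and 294.7 to 326.8 on the other 5 NHR arrays. Replicates 1 and 2 of every group shared 1 slide and replicates 3 and 4 the other. As a check of the labelled tissue, 4 of 5 cardiac muscle miRNAs were detected on all 16 arrays. So were 2 of 2 of red blood cells, 3 of 4 of leukocytes, 2 of 2 of endothelium and 2 of 2 of smooth muscle. Of 3 neuron miRNAs miR-128 was detected on all arrays (mean level 61.7) and miR-124 and miR-9 on none, of 3 liver miRNAs miR-192 was detected on 4 NHR arrays (mean level 9.79) and miR-122 and miR-194 on none, and miR-206 of skeletal muscle was detected on none.

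Few of the late-numbered miRNAs had signal in newborn heart. Detection on at least 1 array was found for 7 of 82 members (8.54%) and for 212 of 595 older-numbered miRNAs (35.6%). Detection on all 16 arrays was found for 3 members (3.66%) and 149 older ones (25.0%). A single array showed 4 to 7 members (median 5.5), or 4.88% to 8.54% of the set, against 161 to 197 older miRNAs, or 27.1% to 33.1% of theirs, so the 2 ranges of shares did not overlap. HHR arrays showed 4 to 6 members and NHR arrays 5 to 7. The gap was present under each of the 4 detection rules tried. The scanner software's own flag per miRNA gave 11 members (13.4%) and 249 older miRNAs (41.8%), counting any single marked spot gave 24 (29.3%) and 311 (52.3%), and requiring every spot of a probe gave 7 and 192 (32.3%).

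The 75 members detected on no array had signals near 0. Their mean levels over the 16 arrays ran from -2.64 to 8.61 with a median of -0.25, and 38 of the 75 had a mean below 0 after the scanner's background subtraction. The 383 older miRNAs detected on no array had a median of -0.24, and 220 of them lay below 0. The floor of the statistical test was 3.33, which is the array median of the lowest level of a miRNA counted as detected, its probes averaged. Of the undetected members 8 of 75 (10.67%) had a mean above it, and of the undetected older miRNAs 41 of 383 (10.71%). In 59 of the 82 members the level was at or under the floor on every array.

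**Figure D1:**
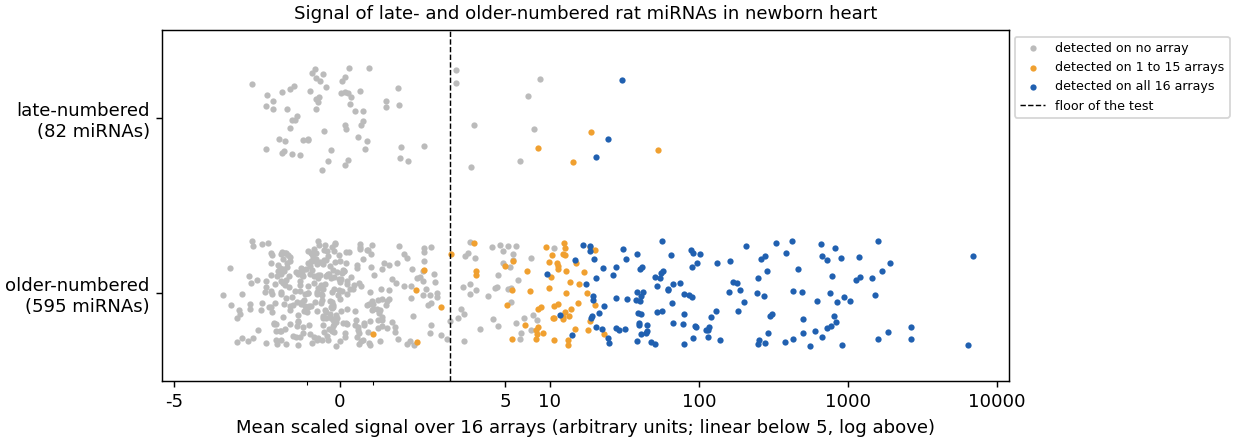
Mean scaled signal over 16 arrays (horizontal axis, arbitrary units, linear below 5 and logarithmic above) of the 82 late-numbered and 595 older-numbered miRNAs, 1 point per miRNA with random vertical scatter, coloured by the number of arrays with detection. Grey points, detected on no array, make up 75 of the 82 late-numbered miRNAs, and the dashed line marks the floor of 3.33.

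The detected members were themselves dim. miR-3584-5p had the highest mean level, 53.0, which rests on a few NHR arrays, and ranked 98th of 677. miR-3085 followed at 30.3 (rank 125), miR-3593-3p at 24.6 (133), miR-3573-3p at 20.3 (141), miR-3549 at 18.8 (149), miR-3559-5p at 14.3 (164) and miR-3588 at 8.27 (201). The 149 older miRNAs detected on all arrays had a median of 94.7 and reached 6915. These are signals of different probes, whose brightness also depends on how well each binds, so the order is one of signal and not of molecules.

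Where the older partner was detected on all 16 arrays, 15 pairs in all, the antisense member had the lower mean level in each. In 14 of them the member was detected on no array, as were 75 of all 82 members. The low level is therefore not particular to the antisense members. miR-1, the main miRNA of heart muscle, had a mean level of 6412, and the complementary miR-3571 had 1.84. let-7a, of a family abundant in differentiated tissue, had 2670 and its complement miR-3596a had 1.78. The same held for let-7f at 1848 with miR-3596d at 1.77, let-7d at 1605 with miR-3596b at 1.41, and let-7e at 773.8 with miR-3596c at 0.89. miR-130a, a miRNA known from endothelial cells, had 1929 and miR-3590-5p had 0.62. miR-378, which lies in a gene of mitochondrial regulation, had 606.2 and miR-3557-5p had -0.94, and its other arm miR-378* had 79.0 against 0.28 for miR-3557-3p. miR-210, known as a hypoxia-induced miRNA, had 277.0 and miR-3574 had -0.71. Over the 32 pairs, 15 partners were detected on all arrays, 5 on some and 12 on none. In 3 of the 12 pairs whose partner was detected on no array, the member's mean lay above the partner's. Only 2 of the 32 paired members were detected, miR-3588 and miR-3549, against 5 of the 33 members with a sequence and no such partner.

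miR-3588 and miR-3549 differed in what lay opposite them. miR-125b-5p, the partner of miR-3588, was bright, with 830.2 to 1019 over the 16 arrays, a mean of 915.7 and rank 17. miR-193*, the partner of miR-3549, was detected on no array and had a mean of -2.09, so here the late-numbered strand was the one with signal. miR-3591, the complement of the liver miRNA miR-122, was at 0.46 and miR-122 itself at 1.26, neither of them detected.

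**Figure D2:**
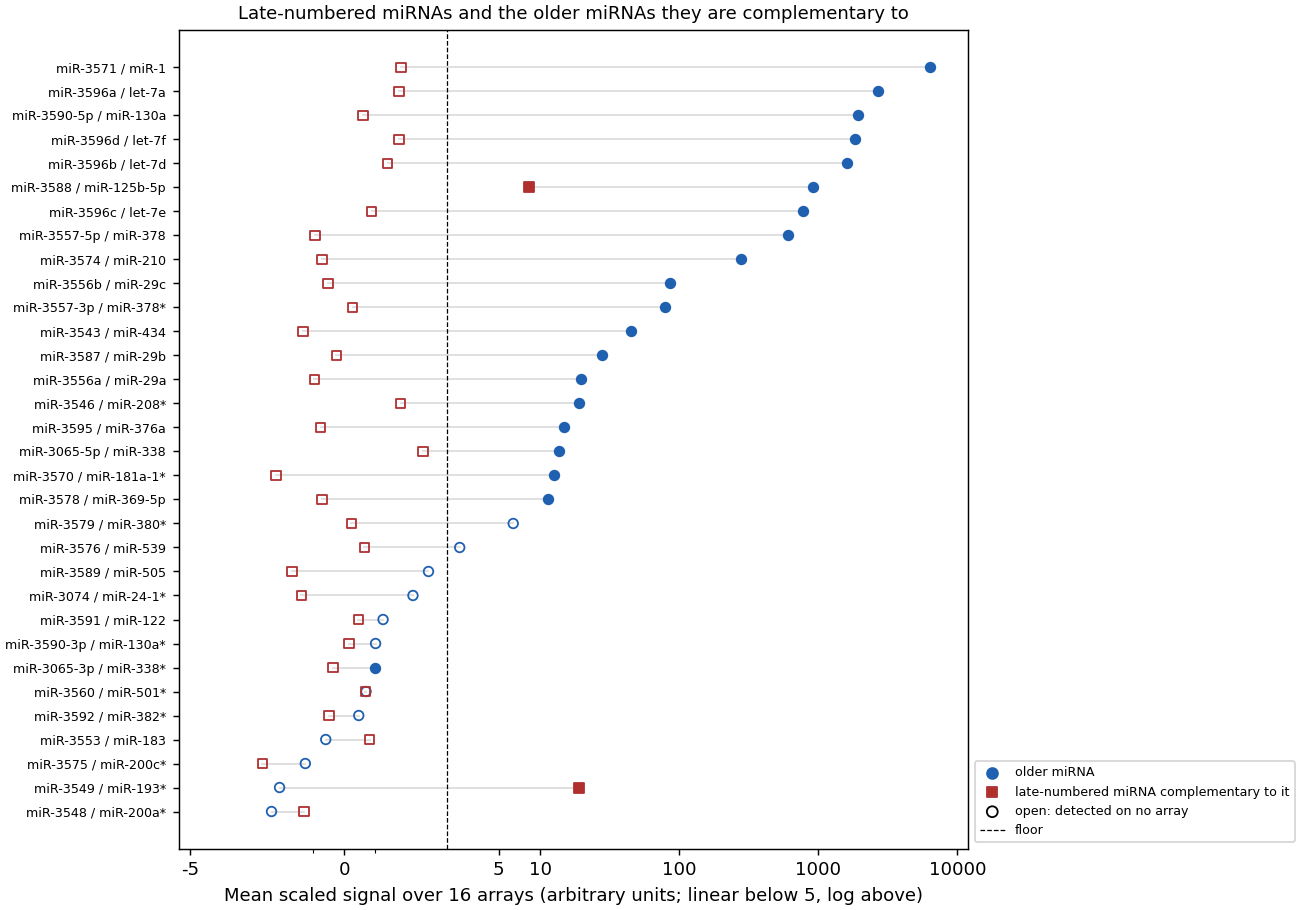
Mean scaled signal over 16 arrays (horizontal axis, arbitrary units, linear below 5 and logarithmic above) of the 32 late-numbered miRNAs (squares) and the older miRNAs complementary to them (circles), 1 pair per line, with open symbols for no detection on any array. Only the squares of miR-3588 and miR-3549 are filled, and miR-1 lies at 6412 against 1.84 for miR-3571.

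A sequence feature was counted after the values were seen and is given as a description only. A run of 5 C or 5 G, CCCCC or GGGGG, occurred in the mature strand of 3 of the 7 detected members (42.9%), which were the 3 detected on all arrays: miR-3085 and miR-3573-3p with CCCCC and miR-3593-3p with GGGGG. It occurred in 1 of the 58 undetected members with a sequence (1.72%) and in 13 of the 615 older-numbered mature miRNAs in RefSeq (2.11%). The median share of G and C was 56.5% in the detected members, 47.6% in the undetected ones and 47.8% in the older ones. A few undetected members, 3 in all, shared a seed with an older miRNA. They were miR-3065-5p (with miR-7a-1-3p), miR-3573-5p (with miR-423-5p, also undetected, at 5.51) and miR-3596d (with 3p arms of the let-7 family).

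Strain differences were tested with limma on log2 levels of the 198 miRNAs detected on at least 4 arrays, with Benjamini-Hochberg adjustment across all 198 and a threshold of 0.05. All 7 detected members were among them. miR-3584-5p passed this filter through NHR arrays only and miR-3588 through 5 NHR and 2 HHR arrays, so a difference was built into their selection. Over both sexes 6 of the 7 were lower in HHR and none was higher, 4 of 5 when miR-3584-5p and miR-3588 are left aside, where 59.6% of all tested miRNAs were called, 48.5% as lower and 11.1% as higher. No member was without overlap between the strains over both sexes, as 15.7% of all tested miRNAs were. The median log2 difference, HHR minus NHR, was -0.51 over the 7 members and -0.09 over all tested miRNAs. How many calls were lower depended on the scaling. The lower share of all calls was 96 of 118 here, 51.3% with the total gene signal, 98.5% with a normexp background, 44.0% after quantile normalization, 11.8% with the percentile taken over all probes and 14.8% without scaling, and in every one of these the called members were lower in HHR except miR-3559-5p, which was called higher after quantile normalization and with all probes. RNA came from whole tissue, in which fewer cells of a type and less RNA per cell cannot be told apart.

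miR-3085 was present on every array. Its level was 22.3 at the lowest, 23.6 at the median and 29.95 at the highest in HHR, and 24.9, 38.8 and 45.2 in NHR. NHR values divided into the 5 dimmer arrays at 38.3 to 45.2 and the 3 brighter arrays at 24.9 to 29.4, and only the latter overlapped HHR. The log2 difference was -0.51 ± 0.12 (SE), or 1.43-fold lower in HHR (limma, adjusted p = 0.00256). Before scaling the level was 25.5 ± 1.31 for the HHR arrays and 28.7 ± 1.49 for the NHR arrays (SD, n = 8 each), a log2 difference of -0.17 that did not pass (limma, adjusted p = 0.0547). Its 2 probes gave 24.5 and 25.1 in HHR and 36.7 and 35.0 in NHR.

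miR-3573-3p was also present on every array, at 14.9, 16.8 and 20.01 in HHR (lowest, median, highest) and 17.5, 25.1 and 28.1 in NHR. The 5 dimmer NHR arrays held the high values, 24.9 to 28.1, and the 3 brighter ones 17.5 to 20.9. It was lower in HHR by a log2 difference of -0.46 ± 0.09 (SE; limma, adjusted p = 0.00110). Unscaled levels were 17.5 ± 0.878 and 19.1 ± 1.84 (SD, n = 8 each), with a difference of -0.12 that did not pass (limma, adjusted p = 0.159).

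miR-3593-3p had 15.2, 19.96 and 25.1 in HHR and 22.3, 29.98 and 36.7 in NHR, and was present on every array. Here the brighter NHR arrays, at 22.3 to 35.6, covered nearly the range of the dimmer ones, at 22.3 to 36.7. The log2 difference was -0.56 ± 0.13 (SE; limma, adjusted p = 0.00256). On the 11 brighter arrays alone it was -0.57 (limma, adjusted p = 0.0219). Without scaling it was -0.22 and did not pass (limma, adjusted p = 0.216), with unscaled levels of 20.4 ± 3.04 for the HHR arrays and 24.3 ± 6.92 for the NHR arrays (SD, n = 8 each).

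miR-3549, the strand opposite miR-193*, was detected on 7 arrays of each strain. It had 14.5, 16.0 and 19.4 in HHR and 14.2, 24.0 and 25.9 in NHR, where the 5 dimmer arrays lay at 23.8 to 25.9 and the 3 brighter ones at 14.2 to 17.1, within or below the HHR range. The log2 difference was -0.39 ± 0.13 (SE; limma, adjusted p = 0.0235). It was 0.0017 on the 11 brighter arrays (limma, adjusted p = 0.997) and -0.05 without scaling (limma, adjusted p = 0.576).

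miR-3559-5p varied least among the members. It had 12.7, 14.0 and 15.02 in HHR and 12.3, 15.02 and 16.3 in NHR, with overlapping strains, and was detected on all 8 HHR and on 6 NHR arrays. Detection rested on 1 of its 2 probes, at a mean of 20.01, while the other, at 8.50, was well above background on no array. Its log2 difference was -0.09 ± 0.05 (SE) with a 95% confidence interval from -0.19 to 0.02, and did not pass (limma, adjusted p = 0.128).

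**Figure D3:**
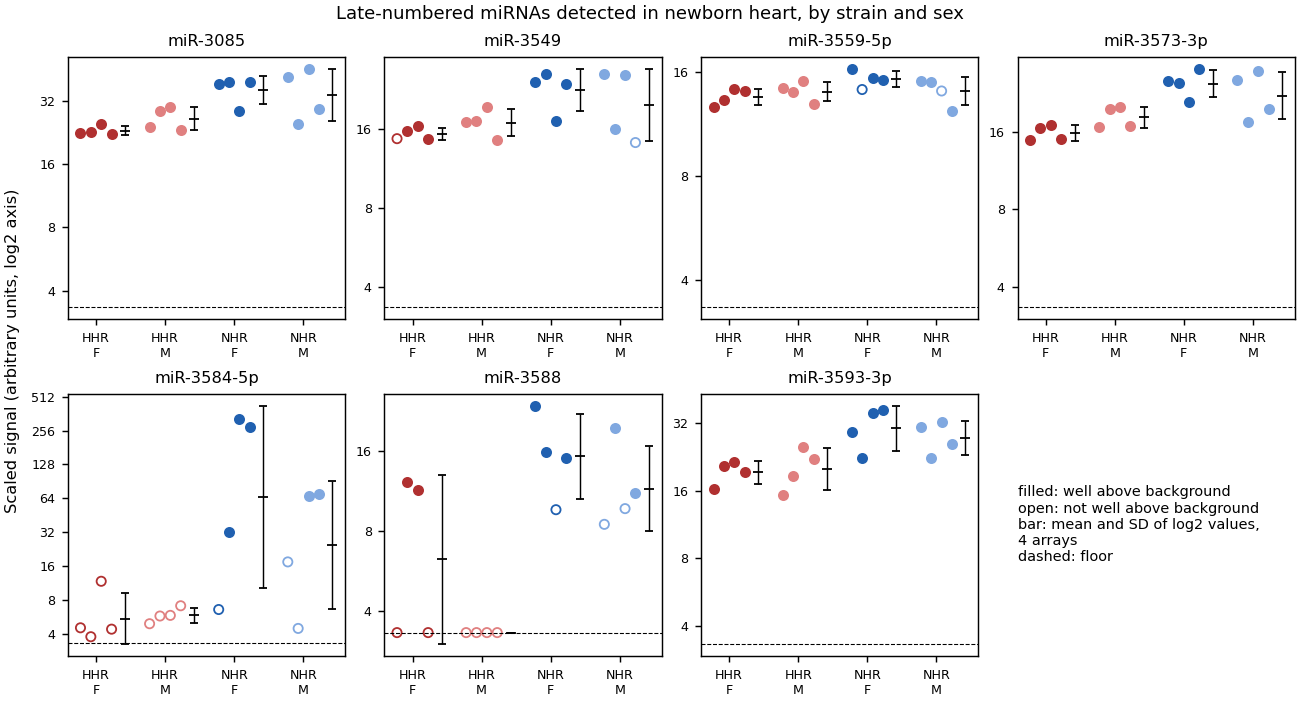
Scaled signal (vertical axis, arbitrary units, log2 scale) of the 7 detected late-numbered miRNAs in the 4 groups (horizontal axis, F female, M male), 1 point per array and values under the floor drawn at it, with the mean and SD of log2 values beside each group. miR-3559-5p stays between 12.3 and 16.3 in all groups, while miR-3584-5p runs from 4.45 to 326 in NHR.

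Before scaling miR-3085 read 23.7 to 31.8 over the 16 arrays, miR-3573-3p 15.9 to 23.1 and miR-3549 13.8 to 19.0. After scaling all 3 were highest on the 5 dimmer NHR arrays. A pair of fits chosen after seeing the data take brightness into account. With the log2 of the 75th percentile as a covariate, miR-3085 (-0.19, adjusted p = 0.00633), miR-3573-3p (-0.21, adjusted p = 0.00394) and miR-3593-3p (-0.48, adjusted p = 0.0369) remained lower in HHR by limma, and miR-3549 did not pass (-0.04, adjusted p = 0.657). On the 11 brighter arrays, 8 HHR and 3 NHR, miR-3085 (-0.18, adjusted p = 0.190) and miR-3573-3p (-0.21, adjusted p = 0.0770) did not pass by limma. Without scaling, only miR-3584-5p and miR-3588 of the 7 were called, where 54 of all 198 were. A strain difference was built into the selection of both. The median difference of all 198 moved to 0.24. Over all 198 there were 77 calls with the covariate and 66 on the brighter arrays.

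**Figure D4:**
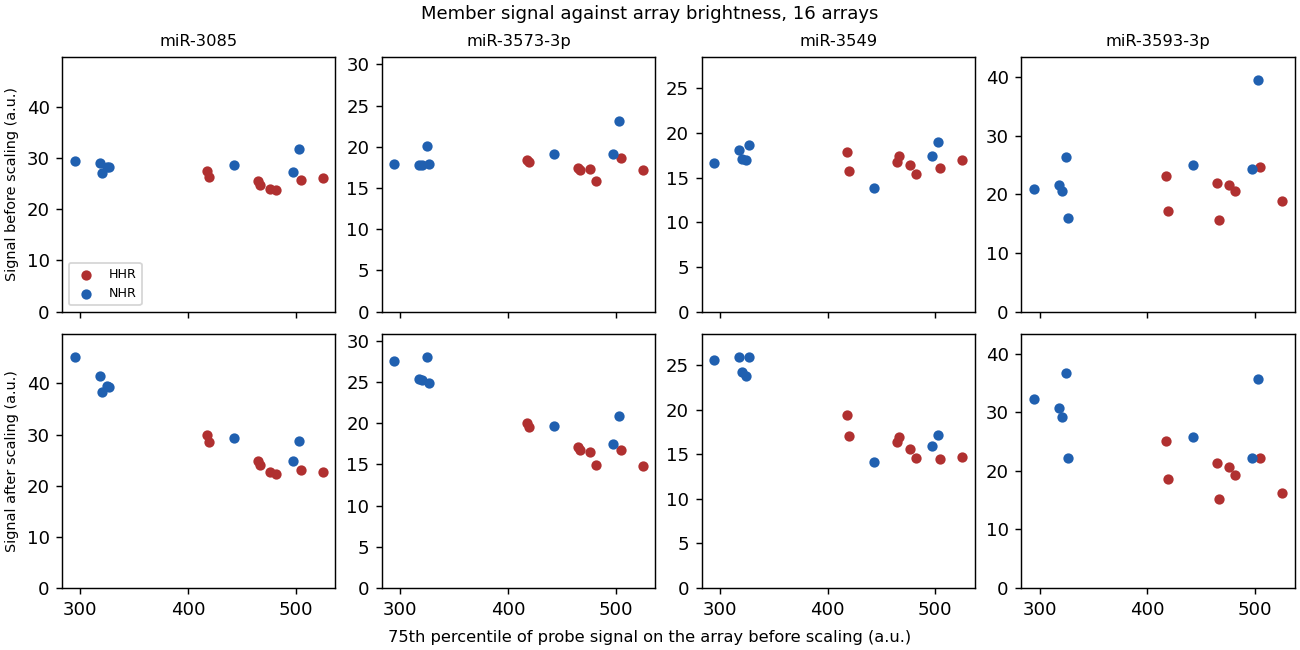
Signal of 4 late-numbered miRNAs before scaling (upper row) and after scaling (lower row), in arbitrary units, against the array's 75th percentile of bright probes before scaling (horizontal axis, arbitrary units), 1 point per array, HHR red and NHR blue. Before scaling miR-3085 lies between 23.7 and 31.8 on arrays whose percentile runs from 294.7 to 525.2, and after scaling its 5 highest points, 38.3 to 45.2, are the 5 dimmer NHR arrays.

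miR-3588, the strand opposite miR-125b-5p, was the only member called in males. In HHR females it read -1.43, 12.3, 11.4 and -0.58, and in HHR males -1.28, -0.99, -0.28 and 0.13. In NHR females it read 23.7, 15.8, 9.63 and 15.1, and in NHR males 8.48, 19.6, 9.72 and 11.1. The males of the strains did not overlap, as 26.8% of all tested miRNAs did not, while HHR females 2 and 3 reached into the NHR range. The fitted log2 difference was -1.54 ± 0.31 (SE) over both sexes and -1.80 ± 0.43 (SE) in males. No p-value from this fit is given for either. Its 2 HHR arrays with detection alone would not have met the filter of 4 arrays, and all 4 HHR males were at the floor. These log2 values depend on the floor, to which 6 of the 8 HHR arrays were raised, and no bound on the fold could be given. Only 1 of its probes was ever well above background, with means of 4.39 in HHR and 20.5 in NHR. Its bright partner miR-125b-5p had a log2 difference of -0.07 ± 0.04 (SE), which did not pass (limma, adjusted p = 0.146).

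miR-3584-5p ran over a wide range in NHR. In HHR it was detected on no array and read 3.75, 5.32 and 11.7 (lowest, median, highest). In NHR females it read 6.55, 32.0, 326 and 277, and in NHR males 17.4, 4.45, 66.4 and 70.2, with detection on 5 of these 8 arrays. The fitted log2 difference was -2.84 ± 0.80 (SE), and 2 NHR arrays lay within the HHR range. Since it entered the test through NHR arrays only, no p-value is given for its strain difference. The bound for HHR was, on each array, the lowest signal of a single probe well above background or the miRNA's own level if higher (3.76 as a mean on the log2 scale), whereas the floor is a level with probes averaged. Against it NHR was at least 2.97-fold higher, at least 4.82-fold in females and at least 1.83-fold in males, with all NHR arrays in the mean. The NHR mean on the log2 scale was 3.50 on slide 1, under this bound, and 7.16 on slide 2, so the fold rests on slide 2. Both probes moved together, at 5.98 and 5.99 in HHR and 96.1 and 103.9 in NHR.

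The high values of miR-3584-5p were also split by slide. On slide 2 the 4 NHR arrays read 66.4 to 326, and on slide 1 the other 4 read 4.45 to 32.0. In HHR the slides gave 4.38 to 11.7 and 3.75 to 5.74. The fitted slide difference over all arrays was 2.10 ± 0.58 (SE), the largest in size of the 198 tested, where limma with a slide term called 7.07%. Of its 5 arrays with detection 4 were on slide 2. It thus met the filter of 4 arrays through slide 2, and no p-value is given for its slide difference. The strain difference was -4.40 on slide 2 and -1.27 on slide 1. What the slide split stems from was not tested.

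Outside the filter, the scanner software's own flag marked 4 more members. These were miR-3562 on 8 arrays, miR-3547 and miR-3584-3p on 4 each and miR-3541 on 2. miR-3562 (chr10:105848002-105848023, minus strand, within the span of the centrosomal gene Cep131) separated the slides. It read 3.30 to 6.99 on the 8 arrays of slide 1 and 7.81 to 11.6 on the 8 of slide 2, without overlap, as 2.58% of the 233 miRNAs with that flag did. The fitted difference was 2.22-fold (log2 1.15 ± 0.15, SE). By limma 7.30% of these 233 were called for slide, all higher on slide 2. The flag marked miR-3562 on 1 array of slide 1 and 7 of slide 2. A slide difference was thus built into its selection, and no p-value is given for it. Its strain difference was -0.17 ± 0.34 (SE; limma, adjusted p = 0.677).

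In that same fit miR-3584-3p (-0.42 ± 0.12, SE, adjusted p = 0.0135) and miR-3547 (-0.43 ± 0.14, SE) were lower in HHR by limma. With them 8 of the 10 members tested there were called, where 54.5% of all 233 were. The 8 include miR-3547 and, with the flag on 6 NHR and 2 HHR arrays each, miR-3584-5p and miR-3588. A difference was thus built into part of this count. miR-3584-3p, the other arm of the miR-3584 hairpin, read 6.29 to 8.80 in HHR and 7.06 to 12.5 in NHR. Its NHR values also divided by brightness, at 9.96 to 12.5 on the 5 dimmer arrays and 7.06 to 7.73 on the 3 brighter ones. Its range was far narrower than that of its 5p arm. miR-3547 divided in the same way, at 9.25 to 10.996 on the 5 dimmer NHR arrays and 5.76 to 7.48 on the 3 brighter ones. The brighter arrays lay within its HHR range of 4.79 to 7.62. Before scaling the mean of miR-3547 was 6.843 in HHR and 7.202 in NHR. The flag marked it on 3 NHR arrays and 1 HHR array, so its entry into this fit rested mostly on NHR arrays. No p-value is given for its strain difference.

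**Figure D5:**
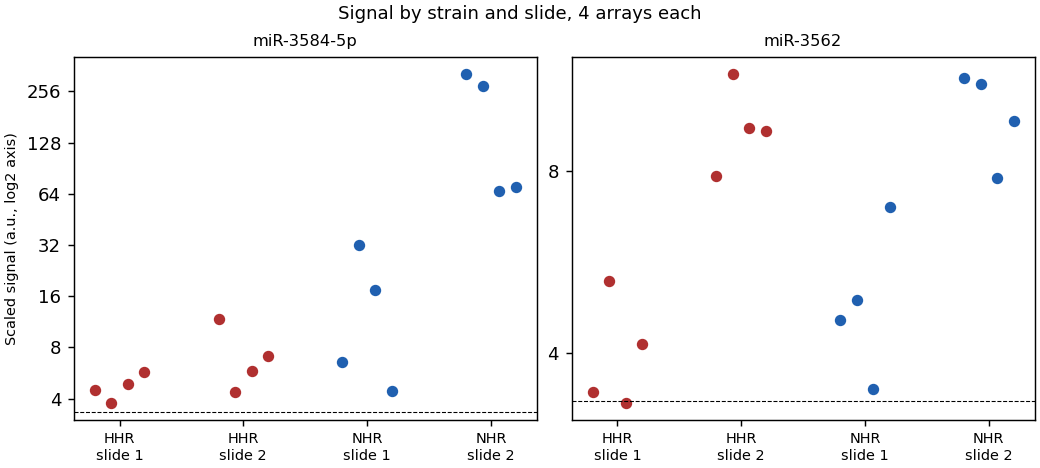
Scaled signal (vertical axis, arbitrary units, log2 scale) of miR-3584-5p and miR-3562 by strain and slide (horizontal axis), 4 arrays in each column and the floor as a dashed line. miR-3562 lies at 7.81 to 11.6 on slide 2 and 3.30 to 6.99 on slide 1 in either strain, and miR-3584-5p is at 66.4 or more only on NHR arrays of slide 2.

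Within each sex the picture differed in counts. The 5 dimmer NHR arrays were females 1, 2 and 4 and males 1 and 3, so they were spread unevenly over the sexes. The counts by sex were not adjusted for this. In females all 7 members were lower in HHR, where 52.5% of the tested miRNAs were called and 44.4% were lower. The 7 include miR-3584-5p and miR-3588, for which a strain difference was built into their selection. miR-3085, miR-3549, miR-3573-3p and miR-3593-3p had no overlap between HHR and NHR females, as had 40.4% of all tested miRNAs. Their female differences ran from -0.56 to -0.66. That of miR-3559-5p was -0.17 ± 0.07 (SE; limma, adjusted p = 0.0492). It did not pass with slide as a block (limma, adjusted p = 0.0557) or replicate number as a block (limma, adjusted p = 0.0560). This leaves 6 of 7, miR-3584-5p and miR-3588 among them, where 99 and 97 of all 198 were called. In males 1 of 7 passed, miR-3588, where 23.2% of all tested did. With slide (limma, adjusted p = 0.0299) or replicate number (limma, adjusted p = 0.0437) as a block miR-3593-3p (-0.46) also passed. There 49 and 47 of all 198 passed. The female count was 4 without HHR female 1 (76 of all 198), HHR female 4 (96) or NHR female 1 (73), and 3 without NHR female 4. The male count was 2 without HHR male 3 (44 of all 198) or NHR female 2 (55) and 4 without NHR male 2. For NHR female 4 and NHR male 2 the counts over all 198 are not given. Whether those shifts were particular to the members cannot be told from them. The sexes were not shown to differ in these strain differences, since the interaction was called for no tested miRNA (0%) by limma, and 7 of the 198 and no member had an unadjusted p under 0.05. No member was called for sex, where 1.01% were, and 20 of the 198 and no member had an unadjusted p under 0.05.

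The spread of the members between arrays was set against that of older miRNAs. The residual SD of log2 levels was 1.69 for miR-3584-5p and 0.65 for miR-3588, the highest and second highest of the 198. That of miR-3588 depends on the floor, to which 6 of the 8 HHR arrays were raised. The residual SD was 0.28 for miR-3549, 0.27 for miR-3593-3p, 0.25 for miR-3085, 0.20 for miR-3573-3p and 0.10 for miR-3559-5p. Over all NHR arrays, the 5 dimmer and the 3 brighter ones, the SD of miR-3549 was 0.36, 0.06 and 0.14. It was 0.31, 0.09 and 0.13 for miR-3085 and 0.25, 0.08 and 0.13 for miR-3573-3p. Much of their spread thus lay between dimmer and brighter arrays. For miR-3593-3p these values were 0.28, 0.27 and 0.35. The median residual SD was 0.09 over the 191 older miRNAs tested and 0.17 over the 62 of them whose mean log2 level lay in the members' range of 2.96 to 4.88. Of these 62, 42 were called by strain, 33 of them as lower in HHR, with a median difference of -0.15.

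Within slides, where each group has 2 arrays, the strain difference kept its sign for all 7 members but few passed. On slide 1 none of the 7 and 35 of all 198 were called by limma. Adjusted p-values (limma) were between 0.0637 and 0.0727 for the members other than miR-3584-5p and miR-3588. The differences there were -0.53 for miR-3085, -0.49 for miR-3549, -0.45 for miR-3573-3p, -1.78 for miR-3588 and -0.56 for miR-3593-3p, against -0.51, -0.39, -0.46, -1.54 and -0.56 over all arrays. On slide 2 the calls were 2 of 7, miR-3593-3p and miR-3584-5p, the latter with a difference built into its selection, and 60 of 198. With slide as a block in the fit of all arrays 6 of 7 were called, where 120 of 198 were.

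The 6 calls over both sexes held when any single array was left out. For miR-3584-5p and miR-3588 among them a strain difference was built into their selection, so that their calls held says little. The adjusted p-values (limma) were at most 0.0492 for miR-3549 and at most 0.00666 for miR-3085, miR-3573-3p and miR-3593-3p. Under the other alternatives, the call was lost in 6 of 20 for miR-3085, 5 of 20 for miR-3573-3p, 3 of 20 for miR-3593-3p and 5 of 19 for miR-3588. miR-3549 lost it in 9 of 20 and changed sign in 1 more. Beside the settings already named, miR-3549 did not pass with the total gene signal (-0.33, limma, adjusted p = 0.0723), after quantile normalization (-0.15, adjusted p = 0.249) or with the percentile over all probes (-0.11, adjusted p = 0.408). miR-3085 did not pass with the percentile over all probes (-0.23, limma, adjusted p = 0.0528). The difference of miR-3588 was -0.91 with the total gene signal and -0.23 with a floor 4 times higher, and its call was lost in both.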

How the data were processed

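Scanner output was deposited for each of 16 arrays. Per the file headers, Agilent Feature Extraction 10.7.3.1 gave each spot's intensity after background subtraction, with no scaling between arrays, and the rn4 build is named there. Detection flags are the deposited 0 or 1 values in the same output. A second deposited file holds the authors' log2 value for every miRNA and array, and the submitters' processing notes name limma. How these were background-corrected, offset, scaled or centred is unknown, so they served only as an alternative. RNA input was 100 ng per the labels.

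Spots marked as outliers and control spots were left out, spots were averaged per probe, and arrays were scaled to an equal 75th percentile of the 258 probes that passed the background flag on every array. Probes were averaged per miRNA, raised to a floor of 3.33 (log2 1.74) and log2 transformed. limma 3.58.1 in R 4.3.3 was fitted with 1 mean per group (strain by sex) to the 198 miRNAs detected on at least 4 arrays, with 5 contrasts, and checked on simulated data. Detected members are named with their values, undetected ones only where a sequence pairs them with an older miRNA (15 or more complementary bases, or a shared seed) or where the gene-level flag marked them. A bound used each HHR array's lowest signal among probes well above background. Members and lists were chosen with earlier results of these data known. The number of arrays limits precision. The p-values rest on the spread between arrays of a group, in which differences between animals and between arrays cannot be told apart. Alternatives covered background, scaling, filter, floor, moderation, slide, replicate number and single arrays. Promoter sequences were not used here.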

Additional observations from a re-analysis of the deposited data

Results flagged for a closer look

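Of the 41 groups of 4 arrays that were checked, 3 held an array far from the other 3, and chance gives about 1 in 20. miR-3085 was 24.9 in HHR female 3, with the other HHR females at 22.3 to 22.7. The same miRNA was 28.7 in NHR female 3, with the other NHR females at 38.3 to 39.4, and this array is 1 of the 3 brighter NHR arrays. miR-3584-5p was 11.7 in HHR female 3, with the other HHR females at 3.75 to 4.51.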

How the results depend on the processing

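The 6 members called by strain became 2 without scaling, 1 in the authors' table (miR-3588), 0 on slide 1 alone, 2 on slide 2 alone and 2 on the 11 brighter arrays, an alternative added after seeing the data. The 6 include miR-3584-5p and miR-3588, for which a strain difference was built into their selection. The 118 calls over all tested miRNAs became 76 with the total gene signal, 54 without scaling, 15 in the authors' table, 35 and 60 on slides 1 and 2, 66 on the brighter arrays and 77 with brightness as a covariate. Leaving out 1 array gave 6 to 7 members (101 to 121 miRNAs), 3 to 7 in females and 1 to 4 in males. The ranges by sex stand without those over all tested miRNAs and are not read as particular to the members. Of the calls from the authors' values 13.3% were lower in HHR. The median difference of all miRNAs was -0.09 as reported, 0.24 without scaling and 0.18 with all probes. The difference of miR-3559-5p turned positive after quantile normalization (0.16), with all probes (0.19), without scaling (0.25) and in the authors' table (0.044), and that of miR-3549 was 0.0017 on the brighter arrays. The cause was not tested. The count of detected members was 11 with the gene-level flag and 24 with any spot. The fit without a filter is unreliable, since 358 of 677 miRNAs had no residual spread at the floor.

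Arrays sharing a replicate number correlated at 0.013 to 0.54 in their deviations (median 0.19, 24 pairs). Arrays of different number on the same slide had a median of 0.24 (24 pairs), and arrays on different slides -0.26 (48 pairs). Sharing a number gave no higher median than sharing only the slide, so the numbers were not taken to pair the animals. The main fit had no slide term. With the replicate block 6 members were called over both sexes, 6 in females (miR-3559-5p was lost) and 2 in males (miR-3593-3p was gained). Of all 198 it called 114 over both sexes, 97 in females and 47 in males. Slide as a block gave the same members. No call over both sexes was lost with either block.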
